A study of Homo sapiens with 6 samples.

Results

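The genes described here are 10 immediate early transcription factors of the AP-1 and EGR families: FOS, FOSB, FOSL1, FOSL2, JUN, JUNB, JUND, EGR1, EGR2 and EGR3. They were taken by gene symbol from the 30818 genes named on the array and were read by 11 of the 47231 gene probes on the array, 1 probe per gene and 2 for EGR3. The RNA came from cultures of MDA-MB-231, an established human line from a triple-negative breast cancer, a tumour type that lacks hormone receptors and HER2 amplification. One group of 3 samples received riluzole at 25 µM and the other group of 3 received the solvent DMSO (vehicle), and all 6 were grown in RPMI medium with serum. Riluzole is a drug of amyotrophic lateral sclerosis that dampens glutamate release. The sample labels put the exposure at 24 hours, and the series title calls it overnight. Of the 10 genes, EGR1 alone passed the test, with a signal 2.05-fold higher after riluzole. The signals of FOS and FOSB lay higher on every riluzole array than on any vehicle array, near the detection limit. Among the tested genes, which leave these 2 out, 11.8% did so in normalized signal. Of the other 7 genes, 5 were tested and did not pass, and 2 were too dim for the main test.

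AP-1 is a dimer of a FOS family protein with a JUN family protein, or of 2 JUN family proteins, joined through a leucine zipper and bound to DNA through the basic region beside it. EGR proteins bind GC-rich sites through zinc fingers, and the NAB proteins act as their corepressors. Most of these genes are switched on within minutes by growth factors, serum or stress, through MAP kinases that act on serum response factor and its ETS partners or on CREB and ATF proteins, and their transcripts usually decay soon after. FOSL1 and JUND are the members best known for lasting expression, and FOSL1 is an established factor of the invasive, mesenchymal type of breast cancer line. The arrays give 1 time point, so no time course of these genes was measured.

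A probe counts as detected on an array when its detection p, the share of the 770 negative control probes with an equal or higher signal, is under 0.05. Between 20516 and 20959 probes were detected per array, and the negative controls averaged 107 to 111 signal units with an SD of 18.5 to 20.9. Among markers of this line, VIM, CD44, EGFR, AXL and KRT18 were detected on all 6 arrays and ZEB1 on 3. ESR1 and PGR were detected on 0 arrays and CDH1 on 1, whereas ERBB2, GATA3 and EPCAM were detected on all 6. Among markers of other cell types, PTPRC, CD3E and ADIPOQ were detected on 0 arrays, and CD68, PECAM1 and ALB on all 6. The labels do not say that the 3 samples of a group came from separate cultures, so each p-value rests on sample-to-sample spread alone, and that spread could be technical. In RNA from whole cultures, a change in the share of cells that express a gene cannot be told apart from a change per cell.

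The promoters of EGR1, FOS, FOSB and JUND are shown, chosen after their values were seen. These are the 4 members whose groups did not overlap in raw signal and did not overlap in normalized signal. Of all tested genes, 22.7% had no overlap in normalized signal. The sequences are RefSeq windows on GRCh38.p14 from 250 bases before the transcription start to 50 after it, read along the gene. They lie at chr5:138465229-138465528 (plus strand), chr14:75278578-75278877 (plus strand), chr19:45467746-45468045 (plus strand) and chr19:18281573-18281872 (minus strand). Capitals mark the CArG box, the site of serum response factor, and TGACG on either strand in EGR1. In FOS and FOSB they mark TGACG and the TATA box TATAAA, and in JUND the full cAMP response element TGACGTCA.
EGR1: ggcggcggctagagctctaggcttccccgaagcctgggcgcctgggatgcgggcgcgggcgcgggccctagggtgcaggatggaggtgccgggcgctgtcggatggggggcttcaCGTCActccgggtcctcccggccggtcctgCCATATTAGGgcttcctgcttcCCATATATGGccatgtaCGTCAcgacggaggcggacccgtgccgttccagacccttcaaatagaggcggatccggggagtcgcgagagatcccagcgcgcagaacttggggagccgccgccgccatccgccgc
FOS: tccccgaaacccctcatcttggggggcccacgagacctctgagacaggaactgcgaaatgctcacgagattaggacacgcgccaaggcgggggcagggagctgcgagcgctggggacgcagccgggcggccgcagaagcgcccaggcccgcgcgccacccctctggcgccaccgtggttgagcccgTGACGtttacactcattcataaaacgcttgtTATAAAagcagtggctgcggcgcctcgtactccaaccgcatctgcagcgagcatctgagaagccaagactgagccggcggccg
FOSB: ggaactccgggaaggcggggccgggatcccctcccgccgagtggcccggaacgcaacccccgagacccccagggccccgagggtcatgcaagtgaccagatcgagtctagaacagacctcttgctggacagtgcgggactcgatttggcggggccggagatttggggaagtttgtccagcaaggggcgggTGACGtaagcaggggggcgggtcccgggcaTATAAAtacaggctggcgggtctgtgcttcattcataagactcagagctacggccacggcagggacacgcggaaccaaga
JUND: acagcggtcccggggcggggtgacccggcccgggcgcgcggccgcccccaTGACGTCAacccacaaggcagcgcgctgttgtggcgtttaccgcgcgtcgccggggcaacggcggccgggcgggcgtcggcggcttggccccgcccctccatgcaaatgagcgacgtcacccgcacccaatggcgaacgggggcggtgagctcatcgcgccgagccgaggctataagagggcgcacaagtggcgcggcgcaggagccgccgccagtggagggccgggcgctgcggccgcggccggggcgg

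The EGR1 window held 2 CArG boxes, which begin 105 and 83 bases before the start. Both strands were searched for every motif, and 1.29% of all 35116 windows of this length held a CArG box. Among the members, a CArG box was also found 71 bases before 1 of the 3 starts of EGR2. TGACG is the first 5 letters of TGACGTCA and so part of any match to it. Each of the 8 members with a window had TGACG in at least 1. By window, TGACG was found in 8 of the members' 10, against 24.6% of all windows. It begins 64 bases before the start in FOS and 60 in FOSB, and in EGR1 it reads CGTCA on the strand printed. TGACGTCA itself was found in JUND alone, 200 bases before the start, against 1.85% of all windows. TATAAA was found in FOS, FOSB and JUNB (11.5% of all windows), the AP-1 site TGACTCA in FOSL2 (4.95%), and the EGR site GCGNGGGCG in EGR1 and EGR2 (9.43%). These matches are letters in a window and not evidence of binding. A site more than 250 bases before a start lies outside the window, so no match does not mean no site. FOSL1 and EGR3 are not among the windows searched.

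EGR1, the growth factor-induced zinc finger activator, rose after riluzole. Its raw signal was 232, 265 and 307 on vehicle arrays 1 to 3 and 427, 462 and 426 on riluzole arrays 1 to 3. All 3 riluzole arrays thus lay above all 3 vehicle arrays (normalized signal: 11.8% of all tested genes), and EGR1 was detected on all 6. After background correction and normalization, the log2 signal was 7.41 ± 0.35 with vehicle and 8.45 ± 0.02 with riluzole (mean ± SD, n = 3 each). The fold of 2.05 (95% interval 1.57 to 2.68) had an adjusted p of 0.0377 in limma, a linear model fitted over all 14887 tested genes with Benjamini-Hochberg adjustment and a threshold of 0.05. EGR1 ranked 101 of these genes by p. EGR1 was the only one of the 6 tested members past the threshold, where 1.18% of all tested genes passed, 0.752% as higher and 0.43% as lower with riluzole. In the authors' processed values, a background-subtracted intensity, EGR1 averaged 140 ± 34.8 with vehicle and 291 ± 4.9 with riluzole.

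The size of the EGR1 rise was steadier than its call. The limma adjusted p was 0.0657 without vehicle replicate 1, 0.105 without vehicle replicate 2, and 0.107, 0.102 and 0.106 without riluzole replicate 1, 2 or 3, so the call held in 1 of 6 such fits, that without vehicle replicate 3 (0.0429). The log2 fold change in these fits lay between 0.85 and 1.21. The call also ended with the authors' processed values (adjusted p = 0.0686) and with no detection filter (0.0644). It ended as well with a block for replicate number (0.092), a pairing that the labels do not state.

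**Figure D1:**
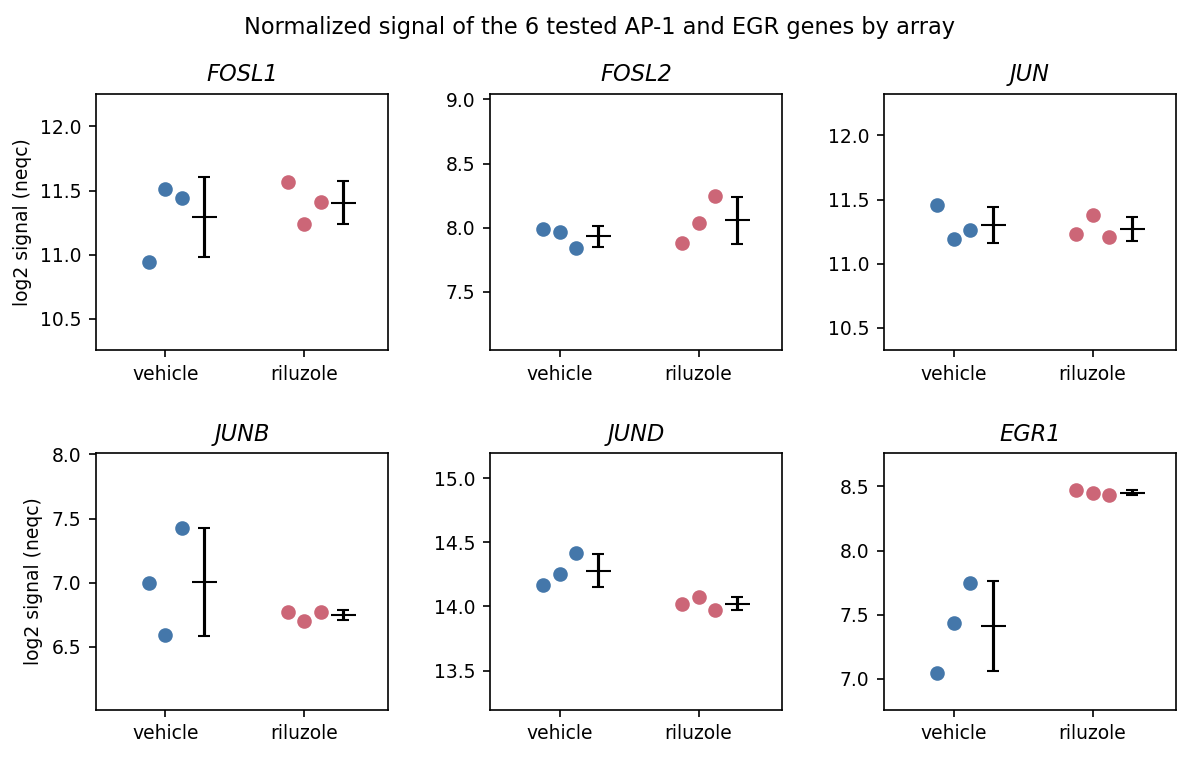
Normalized log2 signal (vertical axis, each panel 2 log2 units tall) of the 6 tested members on the 3 vehicle (blue) and 3 riluzole (red) arrays, with the mean and SD of each group beside the points. The groups lie apart for EGR1, whose riluzole arrays sit between 8.43 and 8.47, and by a smaller gap for JUND, and they overlap for FOSL1, FOSL2, JUN and JUNB.

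EGR2 and EGR3, inducible relatives of EGR1 with a like zinc finger domain, stayed near the negative controls. The EGR2 signal was 137, 127 and 118 with vehicle and 125, 133 and 132 with riluzole. It was detected on 0 of 6 arrays, and its groups overlapped. The first EGR3 probe gave 85.7, 72.6 and 80.7 with vehicle and 83.2, 86.7 and 89.5 with riluzole, below the average negative control on every array. Its groups overlapped in raw signal but not in normalized signal, where riluzole was higher (11.8% of all tested genes). The second EGR3 probe gave 115, 127 and 119 with vehicle and 115, 146 and 115 with riluzole, and was detected on riluzole array 2 alone, where 34 of 770 negative controls were at or above it. With no detection filter, limma gave log2 fold changes of 0.04 for EGR2 (adjusted p = 0.956) and 0.09 for EGR3 (0.913). On signal this dim, the data show only that a level of EGR2 or EGR3 was not detectable above background in most samples.

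FOS is the founding member of its family and the partner that gives the JUN proteins their strongest DNA binding. It was detected on 1 array and so was left out of the main test. With no detection filter its log2 fold change was 0.65, which did not pass (limma adjusted p = 0.305). Its raw signal was 108, 105 and 94.0 with vehicle and 155, 116 and 136 with riluzole. Every riluzole array was above every vehicle array (normalized signal: 11.8% of all tested genes), but FOS was detected on riluzole array 1 alone. There 5 of 770 negative controls were at or above it, against 55 on riluzole array 3 and 302 on riluzole array 2. The raw log2 signal was 0.40 higher with riluzole, with a two-sided exact permutation p of 0.1, the smallest that 3 against 3 samples allow. Any probe whose raw groups do not overlap gets this p, EGR1 and JUND included, so it only restates the lack of overlap. With each array left out in turn the difference ran from 0.30, without riluzole replicate 1, to 0.51. With vehicle values raised to the detection limit, the fold was under 1, so none is given.

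FOSB, a close relative of FOS whose truncated form lasts longer than the other products, was left out of the main test too. With no detection filter its log2 fold change was 0.59, which did not pass (limma adjusted p = 0.196). Its signal was 123, 117 and 117 with vehicle and 153, 156 and 131 with riluzole, again with no overlap (normalized signal: 11.8% of all tested genes). It was detected on 0 vehicle arrays and on riluzole arrays 1 and 2, where 8 and 12 of 770 negative controls were at or above it. On riluzole array 3 there were 83. With vehicle values raised to the detection limit, the background-corrected riluzole mean of 5.77 log2 units was 1.12-fold higher. That mean includes riluzole array 3, where FOSB was not detected, so 1.12 is not a strict lower bound. The vehicle mean in that comparison is taken, per array, as the higher of the lowest detected signal and the probe's own. The measured vehicle mean was 5.18. The raw log2 difference was 0.30 (two-sided exact permutation p = 0.1, the smallest possible), and it ran from 0.25 to 0.38 with an array left out. In the authors' processed values FOSB went from 12.4 ± 1.3 to 35.9 ± 12.5, and FOS from -1.9 ± 5.9 to 26.9 ± 20.2.

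**Figure D2:**
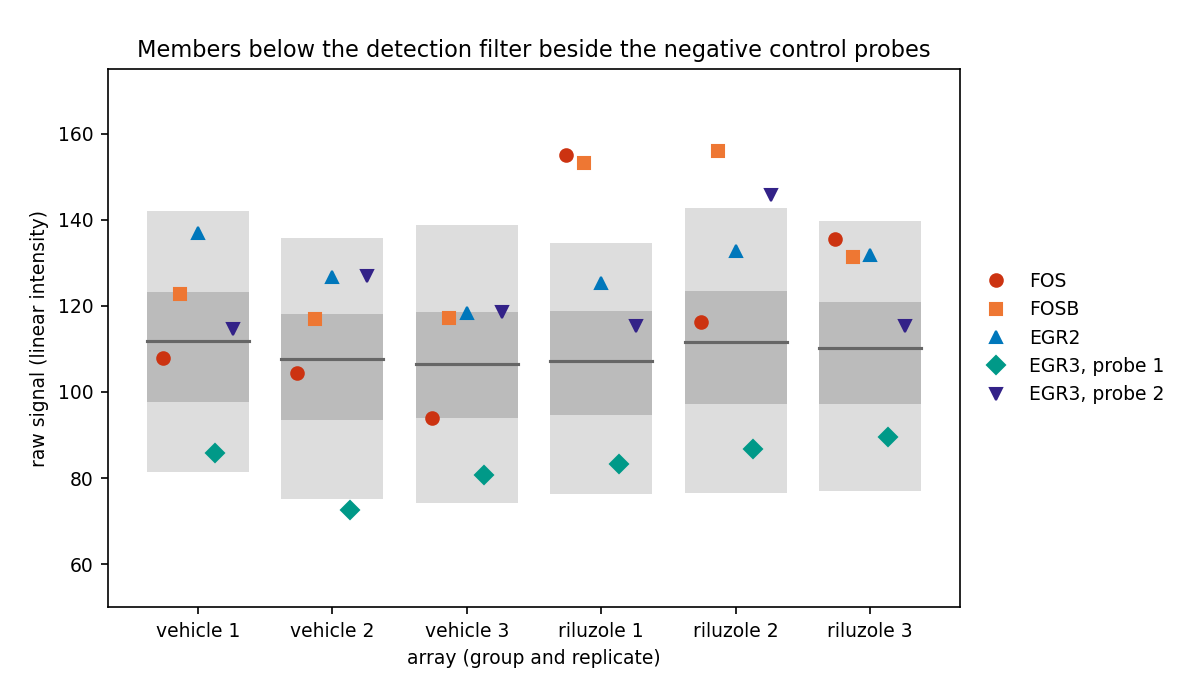
Raw signal (linear intensity, vertical axis) on each array of the 5 probes of FOS, FOSB, EGR2 and EGR3. Grey bands show the middle 90% (light) and middle 50% (dark) of the 770 negative control probes of that array, with their median as a line. FOS on riluzole array 1, FOSB on riluzole arrays 1 and 2 and the second EGR3 probe on riluzole array 2 lie above the bands, and no vehicle point does.

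FOSL1, also known as FRA-1, was detected on all 6 arrays and did not pass. Its signal was 2176, 2987 and 2807 with vehicle and 2918, 2665 and 2718 with riluzole, so the riluzole arrays fell inside the vehicle range. The fold was 1.08 (95% interval 0.825 to 1.41, limma adjusted p = 0.817). Vehicle array 1 was the low one, and without it the log2 fold change turned from 0.11 to -0.07. FOSL2, also known as FRA-2, gave 357, 345 and 321 with vehicle and 313, 373 and 389 with riluzole. Its groups overlapped as well, and its fold was 1.09 (0.899 to 1.33, adjusted p = 0.678). The log2 fold change of FOSL2, 0.13 with all arrays, was 0.08 without vehicle replicate 3, 0.03 without riluzole replicate 3 and 0.21 without riluzole replicate 1. The interval of FOSL1 leaves room for a change of up to 1.41-fold upward or 1.21-fold downward. That of FOSL2 leaves room for up to 1.33-fold upward or 1.11-fold downward.

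JUN, the activator that serves as the usual partner of FOS, gave 3099, 2443 and 2479 with vehicle and 2311, 2950 and 2393 with riluzole. Each group held 1 high array and 2 lower ones. The log2 fold change of JUN was -0.03 (95% interval -0.29 to 0.23, limma adjusted p = 0.936), and it was 0.05 without vehicle replicate 1. JUNB, a weaker activator that can oppose JUN, gave 226, 187 and 265 with vehicle and 194, 204 and 201 with riluzole. The riluzole arrays lay close together within the wider vehicle range, and the log2 fold change of -0.26 had an interval of -0.70 to 0.19 (limma adjusted p = 0.573). It was -0.47 without vehicle replicate 2 and -0.04 without vehicle replicate 3.

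JUND, the member with the most constant expression, gave 20512, 19824 and 21156 with vehicle and 15366, 17974 and 15733 with riluzole. All 3 riluzole arrays were below all 3 vehicle arrays (normalized signal: 11% of all tested genes), and the group means were 20498 and 16358. After normalization the log2 signal went from 14.28 ± 0.13 to 14.02 ± 0.05 (n = 3 each), a log2 fold change of -0.26 (95% interval -0.50 to -0.01). The interval leaves out 0 but the test over all genes was not passed (limma adjusted p = 0.283, unadjusted 0.0421, with 16.3% of all genes under 0.05 unadjusted). The adjusted p of JUND ran from 0.10 to 0.509 over the other settings and the fits with an array left out, and the sign was negative in all 16.

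**Figure D3:**
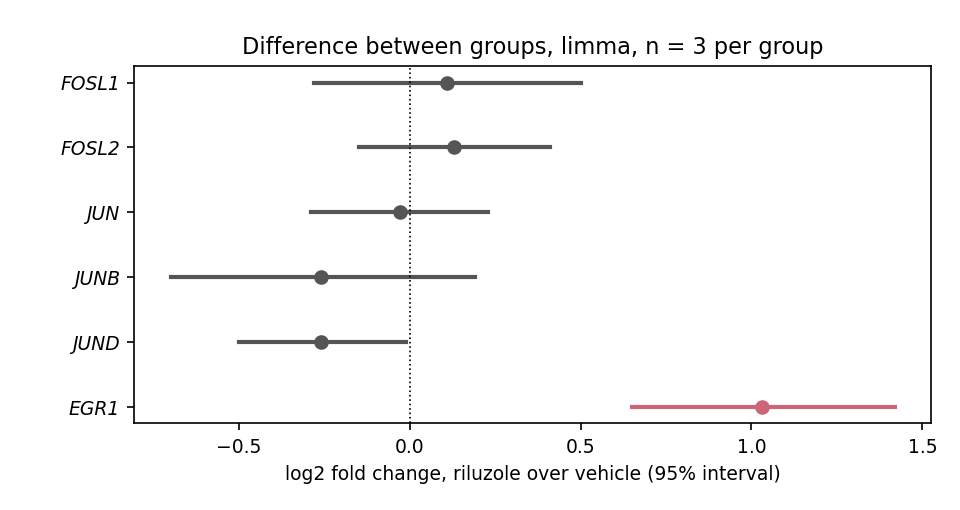
Log2 fold change of riluzole over vehicle (horizontal axis) with its 95% interval for the 6 tested members, from limma with n = 3 per group. EGR1 (red, past the threshold) lies at 1.03, the intervals of FOSL1, FOSL2, JUN and JUNB include 0, and that of JUND ends at -0.01.

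Among the 6 tested members, the normalized groups did not overlap in EGR1, which was higher, and JUND, which was lower, against 22.7% of all tested genes, 11.8% as higher and 11% as lower with riluzole. Log2 fold changes were positive in EGR1, FOSL1 and FOSL2 and negative in JUN, JUNB and JUND. The log2 fold change of EGR1 exceeded that of 99.8% of all tested genes, and those of JUNB and JUND each exceeded that of 11.3%. The median log2 fold change over all tested genes was 0.00.

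**Figure D4:**
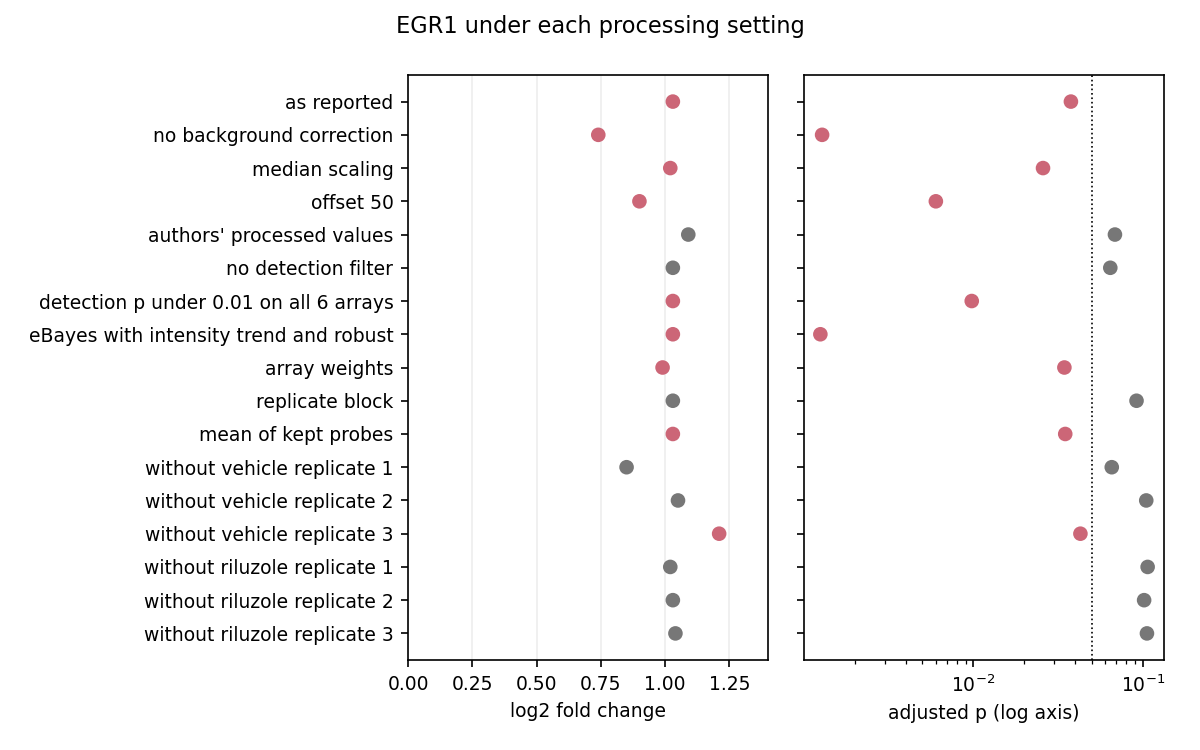
EGR1 under the reported analysis and each alternative (rows), as log2 fold change of riluzole over vehicle (left) and limma adjusted p on a log axis (right), with the threshold of 0.05 dotted and points past it in red. The log2 fold change stays between 0.74 and 1.21, while the adjusted p falls on both sides of the threshold.

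No tested factor upstream of these genes passed. Of all tested genes, 1.18% passed and 16.3% had an unadjusted p under 0.05 in limma, so 0 calls in lists this short say little. Serum response factor and its cofactors had 7 of 8 genes tested, with 0 past the limma threshold, 2 under an unadjusted p of 0.05 and a median log2 fold change of 0.05. The smallest p-values belonged to ELK3, an ETS partner of serum response factor (log2 fold change 0.34, adjusted p = 0.259), and MRTFA, its actin-regulated coactivator (0.39, adjusted p = 0.286). Of 25 kinases of the upstream cascades, 23 were tested and 0 passed, with 3 under an unadjusted 0.05 and a median of -0.03. These were led by MAP2K2, a kinase that activates ERK (log2 fold change -0.34, adjusted p = 0.141), and RPS6KA2, a ribosomal S6 kinase downstream of ERK (0.36, adjusted p = 0.169). Phosphorylation, through which these kinases act, was not measured.

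Dimer partners and other basic leucine zipper factors had 12 of 18 genes tested and 0 past the limma threshold (1.18% of all tested genes). Of the 12, 2 were under an unadjusted 0.05 (16.3% of all tested genes), and the median log2 fold change was 0.09. NFE2L1, a factor of the proteasome response, stood at 0.24 (adjusted p = 0.304). CREB1, which binds the cAMP response element, had 0.36 on its brightest probe (adjusted p = 0.305), while its 3 further detected probes gave 0.36, 0.22 and -0.60. In the list of EGR relatives and corepressors, 3 of 4 genes were tested, with 0 past the threshold and 0 under an unadjusted 0.05. WT1, a zinc finger factor that binds EGR-like sites, gave a log2 difference of -0.18 (adjusted p = 0.544), and the corepressor NAB1 gave -0.06 (adjusted p = 0.870). NAB2, a corepressor that EGR1 itself induces, was named after its value was seen and had a log2 fold change of 0.00 (95% interval -0.27 to 0.27, adjusted p = 0.999).

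With each gene read by its brightest probe, other immediate early genes held the only calls among these lists. Of 38 genes 33 were tested, and 1 was past the limma threshold as higher and 2 as lower, or 9.09% against 1.18% of all genes. An unadjusted p under 0.05 was found in 12 of the 33, against 16.3% of all tested genes. KLF10, a TGF-beta-inducible zinc finger repressor, went from 7.03 ± 0.23 to 7.77 ± 0.10 log2 units (1.68-fold higher, adjusted p = 0.0490). Its further detected probes had log2 fold changes of 0.53 and 0.26 and did not pass (limma adjusted p = 0.167 and 0.535 over all kept probes). With the mean of the kept probes the KLF10 call was lost (log2 fold change 0.51, limma adjusted p = 0.0764). PLK2, a polo-like kinase induced by serum, went from 10.34 ± 0.03 to 9.70 ± 0.15 (1.56-fold lower, 0.0420), and NFKBIA, the inhibitor of NF-kB, from 13.41 ± 0.10 to 12.80 ± 0.11 (1.52-fold lower, 0.0487). Each of the 3 calls was lost with any 1 array left out, with adjusted p between 0.0753 and 0.133 for KLF10, 0.0831 and 0.117 for PLK2 and 0.0933 and 0.144 for NFKBIA. The groups did not overlap in 10 genes that were lower and 1 that was higher, against 11% and 11.8% of all tested genes, and the median log2 fold change was -0.08. Among the members and this list, EGR1 and KLF10 were past the threshold upward. In the list 23 of 33 genes had a negative sign, while 50.17% of all tested genes had a positive one.

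Known targets of the 2 families did not pass on their brightest probes. With 1.18% of all tested genes past the limma threshold and 16.3% under an unadjusted 0.05, 0 calls in lists this short say little. Of 30 AP-1 target genes 24 were tested, FOSL1 among them, with 0 past the limma threshold, 7 under an unadjusted 0.05 and a median log2 fold change of -0.02. The smallest p-values belonged to the keratin KRT18 (log2 fold change -0.80, adjusted p = 0.0635, with a further probe at -0.09) and the chemokine CXCL8 (-0.45, adjusted p = 0.0900, with a further probe at -0.38). CD44, a hyaluronan receptor named after its values were seen, had a log2 difference of 0.24 on its brightest probe (limma adjusted p = 0.268). Of its 2 further detected probes, 1 passed at 0.82 (limma adjusted p = 0.0315 over all kept probes) and 1 gave 0.29. Of 24 EGR1 target genes 14 were tested, with 0 past the threshold, 4 under an unadjusted 0.05, 7 positive and 7 negative, and a median of -0.03. Among them the angiogenic growth factor VEGFA had a log2 difference of 0.59 (adjusted p = 0.165, with a further probe at 0.34).

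**Figure D5:**
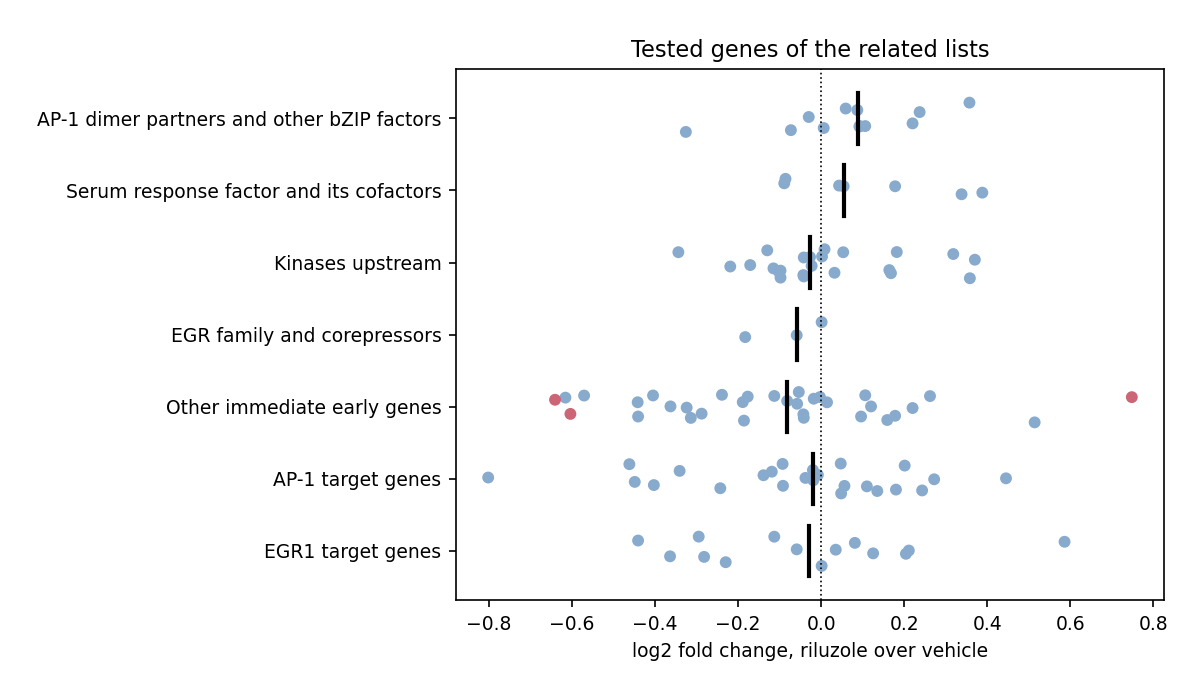
Log2 fold change of riluzole over vehicle (horizontal axis) of each tested gene in the 7 related lists, with a black bar at each list's median and genes past the threshold in red. The medians lie between -0.08 and 0.09, and the 3 red points are KLF10 to the right and PLK2 and NFKBIA to the left, all among other immediate early genes.

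The genes whose normalized signal was most like that of EGR1 over the 6 arrays were LOC731486, ZDHHC11, METTL4, RTN2 and CDC25C, with Pearson correlations between 0.992 and 0.999. These genes were picked by likeness to EGR1 over the same 6 arrays, so positive fold changes came with the choice. CDC25C, the phosphatase that starts mitosis, passed the limma threshold (log2 fold change 0.71, adjusted p = 0.0391), as 1.18% of all tested genes did. A further 4 had log2 fold changes between 0.29 and 0.58. The genes most like JUND, picked in the same way, were SC5D, HLTF, BUB3, MBD2 and ASH2L (0.984 to 0.987), of which 0 passed. The 6 arrays fall into 2 groups, so the points are not spread evenly. A correlation over 0.95 was found in 118 tested genes with EGR1 and in 58 with JUND.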

How the data were processed

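Total RNA (QIAGEN RNeasy Plus) was turned into biotin-labelled cRNA with an Illumina TotalPrep-96 kit, per the labels' protocols, with 1 single-colour bead array per sample. Neither array type nor scanner software is stated in the labels. The authors deposited the average bead signal per probe as a linear intensity, not normalized, and beside it a detection p-value against the negative controls, per the file headers. They also deposited processed intensity values, with some below 0, whose scaling is not stated. Their column medians lie between 20.7 and 21.7, they rise with the raw signal and have no centring per gene, and they served as an alternative.

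The 979 control rows were left out. Intensities were background-corrected (normexp, from the detection p-values), given an offset of 16, quantile-normalized and put on the log2 scale with neqc of limma 3.58.1 in R 4.3.3. The offset draws folds of dim probes toward 1. Probes detected on at least 3 of 6 arrays were kept, each gene was read by its brightest kept probe, and lmFit and eBayes were run with group as the only term, after the code was tested on simulated data. Old symbols were updated through RefSeq synonyms (4626 probes renamed). The number of arrays limits the precision. Alternatives changed the background, scaling, offset, filter, variance model, weights, block, probe summary and the arrays used.

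All 10 members are named, then up to 4 genes past the threshold in each list or, where there were none, the 2 with the smallest p. A gene that this rule names is not reported here. The members and lists were chosen with earlier results of these data known.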

Additional observations from a re-analysis of the deposited data

How the results depend on the processing

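The number of members past the threshold was 1 in the reported analysis and in 7 of 10 other settings, and 0 with the authors' processed values (log2 fold change of EGR1 1.09), no detection filter (1.03) or the replicate block (1.03, adjusted p = 0.0920). Over the 6 fits with an array left out it was 0 to 1, and EGR1 ran from 0.85 to 1.21. FOSL1 ran from -0.07 to 0.21 and JUN from -0.09 to 0.05 in these fits, both turning sign without vehicle replicate 1. No other tested member changed sign or passed in any setting. Genes past the threshold, 176 as reported, numbered 563 without background correction, 362 with an offset of 50, 94 with processed values, 70 without any filter, 360 with the stricter filter of 0.01 on 6 arrays, 661 with an intensity trend and robust variance, 22 with the replicate block and 21 to 41 with an array left out. Genes of the related lists past the threshold, 3 as reported, numbered 12, 8, 0, 0, 8, 16 and 0 in the same order and 0 with any array left out. The labels do not say whether same-numbered samples were paired. Deviations of same-numbered arrays from their group means correlated at -0.146, -0.105 and 0.001. These values cannot settle it, since the deviations within a group sum to 0. The raw differences of FOS and FOSB with an array left out were added after seeing the data. Dim signal limits FOS, FOSB, EGR2 and EGR3, and the EGR1 fold depends on the background (log2 fold change 0.74 without its correction).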

Other observations

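The spread between arrays of 1 group differed between members. EGR1 had a replicate SD of 0.352 log2 units with vehicle, larger than in 91.7% of tested genes, and of 0.02 with riluzole, larger than in 1.8%. JUNB had an SD of 0.423 (95.7%) with vehicle and 0.04 (7.0%) with riluzole. For comparison, the median SD over all tested genes was 0.147 with vehicle and 0.139 with riluzole. FOSL1 had an SD of 0.309 with vehicle, larger than in 87.7% of tested genes, and of 0.166 with riluzole. FOSL2 showed the opposite order, 0.082 and 0.183. With 3 arrays per group these spreads were not tested against each other. EGR1, JUNB and JUND were highest, among vehicle arrays, on vehicle array 3, at 7.75, 7.43 and 14.42 log2 units. FOSL1 was highest on vehicle array 2, and FOSL2 and JUN on vehicle array 1.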
